A study of Mus musculus with 2 samples.

Results

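Nonclassical monocytes were taken from single-cell RNA profiles of 2 mouse lungs, one library labelled control and one labelled fibrosis. Both came from male C57Bl/6J mice aged 3 months that had received 100 µg of either titanium dioxide, a particle given as the mineral control, or crocidolite asbestos, a fibre that causes lung fibrosis, through the trachea 14 days earlier. The labels name both particles for the series without tying either to a mouse, and the groups are called here by their labels, control and fibrosis. Each library is the lung of 1 mouse, perfused and digested with dispase and DNase, cleared of red cells and profiled with the 10x 3′ V2 chemistry. With 1 library per group there is no replicate, so no difference between them was tested, and mouse, library and condition cannot be told apart. Intervals below are exact 95% intervals for counting error only.

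A cell was a member if at most 10% of its unique molecular identifiers (UMIs, each standing for 1 captured RNA molecule) came from mitochondrial genes and it held at least 1 UMI of 3 or more of the 6 genes Adgre4, Cd300e, Treml4, Ace, Eno3 and Spn. It also needed a UMI of Csf1r or Itgal, no UMI of the B cell gene Cd79a or the T cell gene Cd3e, under 3 UMIs of the endothelial gene Pecam1, and under 0.3% of its UMIs on the macrophage complement genes C1qa, C1qb and C1qc. The rule found 586 members among 14971 cells. In the control library 357 of 8026 cells were members, a share of 4.45% (4.01 to 4.92). In the fibrosis library they were 229 of 6945 cells, a share of 3.30% (2.89 to 3.74). The 2 intervals did not overlap, but those of the shares among cells with a UMI of the leukocyte gene Ptprc did, at 6.37% (5.71 to 7.07) in control and 5.21% (4.54 to 5.95) in fibrosis.

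Monocytes are made in the bone marrow and circulate in the blood. Classical monocytes carry high Ly6C and CCR2, leave the vessels at sites of injury and can become macrophages. Nonclassical monocytes carry low Ly6C and high CX3CR1, arise from classical monocytes, crawl along the inner wall of small vessels and clear debris there. They need the nuclear receptor NR4A1 to form and the receptor CSF1R to survive, and the lung, with its dense capillary bed, holds many of them even after perfusion.

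The promoters of 4 genes are shown because they hold the letters of a PU.1 element. PU.1, the product of Spi1, is the transcription factor on which monocytes depend. The word GAGGAAGT or its reverse complement ACTTCCTC stands in capitals, in the 250 bases before the RefSeq start of each gene (GRCm38.p6, 5′ to 3′ on the gene's strand). Fcgr4, at chr1:171018676-171018925 on the plus strand, Cd300ld, at chr11:114989887-114990136 on the minus strand, and Bcl2a1b, at chr9:89199023-89199272 on the plus strand, were among the 20 genes that stood highest in the members over classical monocytes. Ly6c2, at chr15:75111972-75112221 on the minus strand, is the gene of the antigen by which the monocyte kinds are told apart.
Fcgr4: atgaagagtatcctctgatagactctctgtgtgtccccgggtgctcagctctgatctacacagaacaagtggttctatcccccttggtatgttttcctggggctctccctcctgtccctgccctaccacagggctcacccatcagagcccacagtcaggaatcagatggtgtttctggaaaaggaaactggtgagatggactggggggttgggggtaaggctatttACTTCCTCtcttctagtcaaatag
Cd300ld: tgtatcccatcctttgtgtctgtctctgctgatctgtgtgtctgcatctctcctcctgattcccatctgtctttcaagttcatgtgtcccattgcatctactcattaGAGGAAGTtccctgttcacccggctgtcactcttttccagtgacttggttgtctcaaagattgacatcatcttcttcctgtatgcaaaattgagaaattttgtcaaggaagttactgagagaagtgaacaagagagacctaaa
Bcl2a1b: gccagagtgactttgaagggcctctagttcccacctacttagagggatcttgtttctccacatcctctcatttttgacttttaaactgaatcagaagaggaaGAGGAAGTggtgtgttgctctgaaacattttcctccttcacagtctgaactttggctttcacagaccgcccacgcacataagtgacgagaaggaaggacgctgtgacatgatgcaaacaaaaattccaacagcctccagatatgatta
Ly6c2: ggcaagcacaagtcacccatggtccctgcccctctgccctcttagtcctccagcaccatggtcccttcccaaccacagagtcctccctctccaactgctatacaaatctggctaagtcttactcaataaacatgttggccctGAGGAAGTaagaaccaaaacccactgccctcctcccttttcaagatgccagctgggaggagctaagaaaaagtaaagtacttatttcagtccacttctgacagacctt
The element lies 24 bases before the start in Fcgr4, 143 in Cd300ld, 148 in Bcl2a1b and 108 in Ly6c2. A second RefSeq start of Ly6c2, whose window overlaps the one shown, has matches 142 and 8 bases before it. Of the 20 leading genes, 16 had a promoter in the RefSeq table and 3 of these held the word, against 802 of all 32851 promoters, or 2.44%. Of 20 classical monocyte genes, 14 had a promoter there and 1, Ly6c2, held it. The NR4A element AAAGGTCA, present on either strand in 1.34% of all promoters, and the RUNX element TGTGGTTT, present in 1.49%, were in none of these windows. A match describes letters and not a bound site. A listed gene was counted as holding the word if any of its promoters did, while the 32851 promoters were counted singly. The shares thus differ in unit.

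The gate genes describe the members, since they chose them. Adgre4, an adhesion receptor of myeloid cells, was at 294 counts per 1000000 of the members' UMIs (CPM) in control (268 to 321) and 387 in fibrosis (347 to 430). Treml4, a receptor that binds dying cells, was at 201 and 240 CPM. Ace, angiotensin-converting enzyme, was at 475 and 493 CPM, Eno3, a muscle-type enolase, at 206 and 173, and Spn, the sialophorin CD43, at 320 and 347. Cd300e, an activating receptor of the CD300 family, was at 213 CPM in control (191 to 237) and 139 in fibrosis (116 to 166). Csf1r, the receptor for M-CSF, was at 498 CPM (464 to 534) and 457 (414 to 504).

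The strictness of the rule showed in cells near its threshold. Members with exactly 3 of the 6 genes numbered 134 in control and 104 in fibrosis, and a further 213 and 154 cells met every other condition with 2 genes. The receptor Cx3cr1, which the rule did not use, was at 267 CPM in control members with 3 genes and 150 in the cells with 2. In fibrosis it was at 294 and 156 CPM. Members with all 6 genes, 24 in control and 13 in fibrosis, had Cx3cr1 at 416 and 475 CPM. Nr4a1 was at 101, 228, 354, 298 and 428 CPM at 2, 3, 4, 5 and 6 genes in control and at 124, 327, 457, 571 and 414 CPM in fibrosis, so cells with 2 genes were lowest and the order above 3 was not steady. The number of gate genes found also depends on depth, and the cells with all 6 had a median of 6228 UMIs in control and 4804 in fibrosis against 3797 and 3120 in those with 3.

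Members were sequenced to a median of 3910 UMIs and 1396 genes per cell in control and 3032 UMIs and 1226 genes in fibrosis. Their summed UMIs were 1590961 and 883948. The shallowest deposited cell had 1460 UMIs in control and 1915 in fibrosis, so the libraries were cut at different depths. With every cell thinned to 1500 UMIs, the share of members was 1.70% (1.43 to 2.01) and 1.48% (1.21 to 1.80), with 156 shallower control cells left out. The intervals overlapped at that depth, where 134 control and 103 fibrosis cells still met the rule. With a floor of 2000 UMIs per cell instead, the share was 4.89% (4.37 to 5.44) in control and 3.03% (2.64 to 3.47) in fibrosis. Those intervals did not overlap. The libraries shared 89 cell barcodes, 5 of them on control members and 3 on fibrosis members.

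Many members carried transcripts of another lineage, and more so in control. The calprotectin genes S100a8 and S100a9, the main cytosolic proteins of neutrophils, together had at least 20 UMIs, or the neutrophil gene Retnlg at least 5, in 88 of 357 control members (24.6%, 20.3 to 29.5) and in 18 of 229 fibrosis members (7.86%, 4.72 to 12.1). For comparison, 3.51% of control and 3.62% of fibrosis classical monocytes reached 20 UMIs of S100a8 and S100a9, and 3.93% of B cells did in each library. The rule for classical monocytes barred any Retnlg, which the rule for nonclassical monocytes did not. The control members over the limit had 6.66% of their UMIs on S100a8 and S100a9 at the median, against 0.0468% in the others. They held the monocyte genes too: Nr4a1 was at 283 CPM in them and 316 CPM in the other control members, and Pou2f2, a transcription factor of nonclassical monocytes, at 454 and 609 CPM. Cxcr2, the neutrophil chemokine receptor, was at 264 CPM in them and 3.58 in the others. Outside the gate, 934 control cells and 180 fibrosis cells passed both neutrophil limits. Whether the members over the limit are pairs of cells in 1 droplet was not tested.

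**Figure D1:**
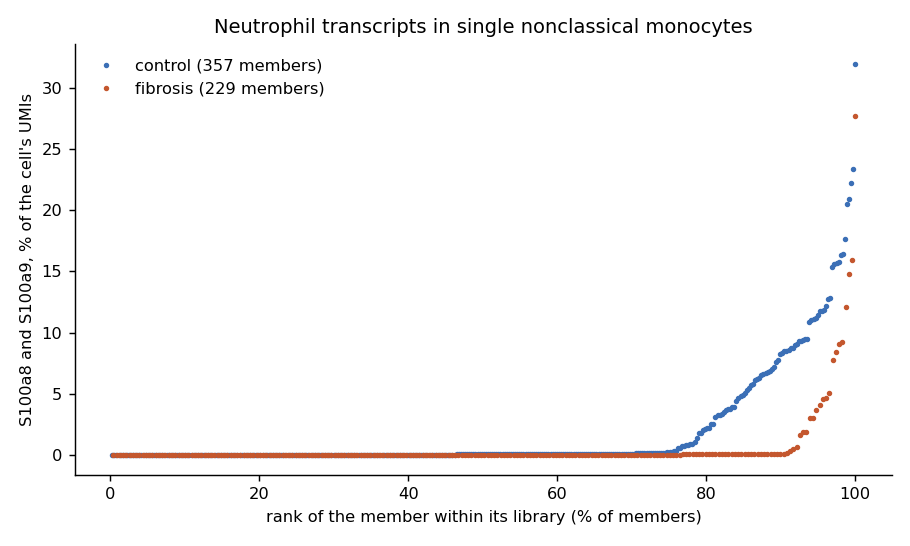
Each point is 1 member, placed on the vertical axis by the percent of its UMIs on S100a8 and S100a9 and on the horizontal axis by its rank within its library (357 control, 229 fibrosis). The curve leaves the baseline for 88 control and 18 fibrosis members, and the highest control member stands at 32.0%.

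Among the other lineages, epithelial markers reached their limit in 11 control members (3.08%, 1.55 to 5.45) and 19 fibrosis members (8.30%, 5.07 to 12.7), and endothelial markers in 9 and 5. No member of either library passed the limit for B cells or platelets. For B cells the member rule largely set this, since it barred any Cd79a. Of the cells with at least 3 gate genes, 31 of 415 in control and 28 of 280 in fibrosis held Cd79a. In all, 120 control members (33.6%) and 57 fibrosis members (24.9%) passed at least 1 limit. The others, 237 control and 172 fibrosis cells, are called single-lineage members below. That subset was chosen after the data were seen, and results are given for all members and for it. Its share of all cells was 2.95% (2.59 to 3.35) in control and 2.48% (2.12 to 2.87) in fibrosis, so the intervals overlap. The limits were fixed UMI counts, whatever the depth of a cell, so deeper cells reach them more easily. Members past a limit had a median of 4911.5 UMIs in control and 4888 in fibrosis, against 3399 and 2830 in single-lineage members.

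One fibrosis member alone supplied most UMIs of several airway genes. It held 8247 of the 11224 UMIs of Scgb1a1, the club cell secretoglobin, 241 of 271 of Cyp2f2, a club cell cytochrome, 162 of 183 of Mgp, matrix Gla protein, and 231 of 381 of Retnla. It is not among the single-lineage members.

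The label was checked on genes known from nonclassical monocytes that the gate did not use, and most stood above their level in classical monocytes in both libraries. Classical monocytes were gated on Ly6c2, Ccr2, Vcan, F13a1 and Mgst1, and numbered 1027 in control and 304 in fibrosis. Their rule also barred cells with 2 or more of the 6 gate genes, so the check is not independent of the gate. Of 24 listed genes with at least 100 UMIs over both libraries in the single-lineage members, 20 were at least 2-fold higher than in classical monocytes in both libraries and 0 were at least 2-fold lower. Over all 6150 genes compared, 2.99% were at least 2-fold higher in both libraries and 3.04% at least 2-fold lower. These 6150 genes needed 100 UMIs in single-lineage members and classical monocytes together, a looser filter than that of the listed genes. The list's median log2 excess over classical monocytes was 2.67 in control and 1.95 in fibrosis.

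The nuclear receptor gene Nr4a1 (chr15:101254269-101274795, plus strand, GRCm38) was at 347 CPM in control single-lineage members (310 to 387) and 513 in fibrosis (454 to 577). In classical monocytes it was at 45.6 and 54.4 CPM. The members' level was above the classical level in both libraries, and above in fibrosis against control, with a log2 ratio between the libraries of 0.56 (0.33 to 0.80) in single-lineage members and 0.42 (0.22 to 0.62) in all members. Its median ratio in classical monocytes, B cells and T cells was 0.38. Thinned to 1000 UMIs, 35.4% of single-lineage members in control (29.4 to 41.9) and 44.2% in fibrosis (36.6 to 51.9) held a Nr4a1 UMI, against 0.952% and 1.15% of B cells as background. Unthinned, the shares in single-lineage members were 64.1% and 69.8%.

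S1pr5, the sphingosine-1-phosphate receptor by which patrolling monocytes leave the marrow, was at 73.1 CPM in control single-lineage members and 75.9 in fibrosis, against 1.98 and 6.80 in classical monocytes. Fcgr4, the activating IgG receptor FcγRIV (chr1:171018920-171029761, plus strand), was at 278 CPM (245 to 315) and 250 (210 to 296), against 22.8 and 41.5. Ear2, an eosinophil-type ribonuclease, was at 621 and 674 CPM, against 89.1 and 229 in classical monocytes. None of these 3 genes had library intervals that parted in the single-lineage members.

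The 20 genes with the highest excess over classical monocytes in both libraries included all 6 alternatives of the gate, which the rule fixed, and 14 others. Dusp16, a phosphatase of stress kinases, was at 120 CPM in control single-lineage members and 118 in fibrosis, against 5.75 and 4.76 in classical monocytes. Hes1, a target of Notch signalling, was at 366 and 365 CPM, against 61.4 and 53.7. Notch ligands of vessel cells are known to drive the step from classical to nonclassical monocytes. Cd300ld, of the CD300 family whose members are alike in sequence, was at 212 and 194 CPM, against 28.9 and 25.2. Stap1, a signalling adaptor, was at 172 and 133 CPM, against 25.3 and 15.6, but B cells also had it, at 137 and 91.7 CPM. Ly6i, a Ly6 family gene, was at 100.4 and 85.2 CPM, against 11.1 and 11.6. The intervals of the 2 libraries overlapped for these 5 genes. Cyfip2, which takes part in actin assembly, was at 71.0 CPM (54.8 to 90.4) in control and 118 (91.2 to 151) in fibrosis, against 10.6 and 16.3 in classical monocytes.

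The list as a whole was near level between the libraries. Its median log2 ratio was 0.12 in the single-lineage members and -0.09 in all members, against -0.05 and -0.06 over all 1811 and 2895 genes. Gngt2, a G protein gamma subunit, was at 2047 CPM (1955 to 2142) and 2046 (1927 to 2170). Cx3cr1, the fractalkine receptor that holds these cells to the vessel wall (chr9:119901616-120069879, minus strand), was at 382 CPM (343 to 424) and 454 (399 to 514). Pou2f2 was at 665 CPM (613 to 720) and 565 (503 to 632). Lst1, a leukocyte membrane protein, was at 1890 CPM (1802 to 1981) and 2149 (2028 to 2277). Pglyrp1, a peptidoglycan recognition protein also stored by neutrophils, was at 647 and 389 CPM in all members but at 545 (498 to 595) and 481 (425 to 544) in the single-lineage ones. Sirpb1c was the 1 listed gene at least 2-fold apart, at 296 and 146 CPM, and its log2 ratio in classical monocytes was -1.17 against -1.01 here. Sirpb1c and its near-identical neighbours can share reads, so its level is uncertain.

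**Figure D2:**
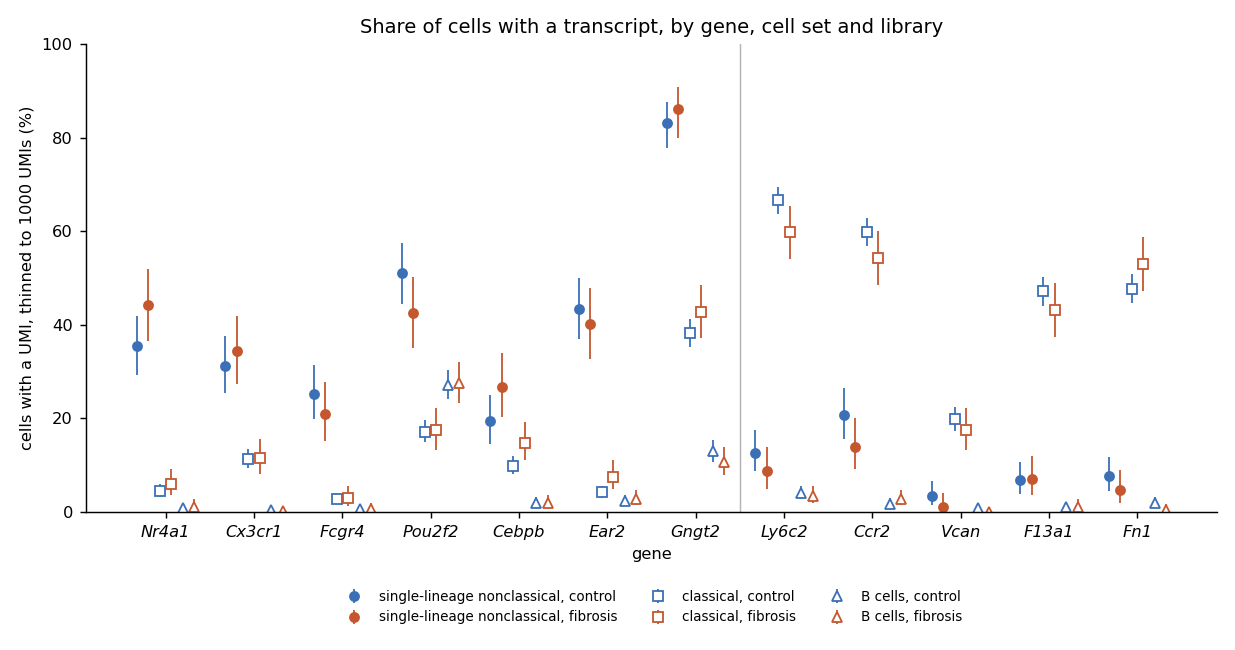
The vertical axis gives the percent of cells with a UMI of each gene after every cell was thinned to 1000 UMIs, with exact 95% intervals, for single-lineage nonclassical monocytes, classical monocytes and B cells of each library. Nr4a1 to Gngt2 sit higher in the nonclassical than in the classical cells, and Ly6c2 to Fn1 lower, where the classical gate used Ly6c2, Ccr2, Vcan and F13a1.

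Between the libraries, 71 of 2895 genes with at least 100 UMIs were at least 2-fold higher in fibrosis members (2.45%) and 54 at least 2-fold lower (1.87%). In the single-lineage members 17 of 1811 were higher (0.939%) and 18 lower (0.994%). Scaling by TMM moved the median of all genes from -0.06 to -0.20 and gave 64 higher and 74 lower. Every list median is lowered alike by that scaling, so those of MHC class II, monocyte transcription factors and macrophage differentiation, near 0 in all members, turned from above to below 0 (-0.10, -0.13 and -0.13). With the median ratio of classical monocytes, B cells and T cells subtracted, 16 were higher and 37 lower of 2719. Of the 71 higher genes, 48 were also at least 1.41-fold higher in all 3 of those other cell types. Of the 54 lower genes, 42 were measured in all 3, and 13 were also at least 1.41-fold lower in each. After the subtraction, 12 of the 71 and 11 of the 54 were still 2-fold apart.

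Among the 17 lists of monocyte functions, which leave out the markers of other lineages, free RNA and cell cycle, the classical monocyte list stood lowest. The neutrophil marker list, one of those left out, had a median of -1.25 over 8 genes in all members. Of the 16 classical genes measured in all members, 6 were at least 2-fold lower in fibrosis and 0 higher, beside 1.87% and 2.45% over all genes. Of the 16, 13 lay below 0 and 3 above. The list's median log2 ratio was -0.76 in all members and -0.66 over 13 genes in the single-lineage members. Of those 13, 4 were at least 2-fold lower and 0 higher, beside 0.994% and 0.939% over all genes. With the median ratio of classical monocytes, B cells and T cells subtracted, the list's medians were -0.40 and -0.57. It was then no longer lowest, since MHC class II stood at -0.82 in all members and -0.70 in single-lineage members. Scavenger and lipid genes stood at -0.61 in the single-lineage members after that subtraction.

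Ly6c2 (chr15:75108158-75111970, minus strand), the Ly6C antigen that separates the 2 monocyte kinds by flow cytometry, was at 316 CPM in control members (289 to 345) and 129 in fibrosis (106 to 155). The log2 ratio was -1.29 (-1.60 to -0.998) in all members and -1.28 (-1.67 to -0.92) in the single-lineage members, at 338 and 139 CPM. In classical monocytes, at 1515 and 1178 CPM, it was -0.36, but classical monocytes were chosen partly by Ly6c2. B cells also had less in fibrosis, at 157 and 38.0 CPM, and the median log2 ratio of classical monocytes, B cells and T cells was -0.88. Ly6c2 and its near-copy Ly6c1 can share reads. Ms4a4c, a membrane protein of the MS4A family, was at 184 CPM (163 to 206) in control members and 74.7 (57.7 to 94.99) in fibrosis, and 225 and 87.0 in the single-lineage ones.

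Vcan, the proteoglycan versican, was at 59.7 CPM (48.3 to 73.0) in control members and 21.5 (12.9 to 33.6) in fibrosis. Fn1, fibronectin, was at 189 CPM (162 to 219) and 81.5 (59.2 to 109) in single-lineage members, a log2 ratio of -1.20 (-1.73 to -0.73), while classical monocytes had 690 and 762. F13a1, the coagulation factor XIII subunit, was at 168 CPM (143 to 197) and 92.6 (68.7 to 122). Ccr2, the chemokine receptor that draws monocytes into tissue, was at 370 CPM (332 to 412) and 263 (221 to 310). The intervals parted between the libraries for each of these 4 genes. The median log2 ratio of the same 3 other cell types was -1.03 for Vcan, which had few UMIs in them, -0.35 for Fn1, -0.13 for F13a1 and -0.08 for Ccr2.

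S100a4, a calcium-binding protein of migrating cells, was at 1454 CPM (1395 to 1514) and 575 (526 to 627) in all members. It was also lower in fibrosis in classical monocytes, at 2219 and 1077 CPM, and its median log2 ratio over the 3 other cell types was -1.04 against -1.15 in the single-lineage members. Plac8, which marks bone-marrow-derived myeloid cells, was at 5878 CPM and 5541 in single-lineage members and differed little, with a log2 ratio of -0.09 (-0.15 to -0.02).

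**Figure D3:**
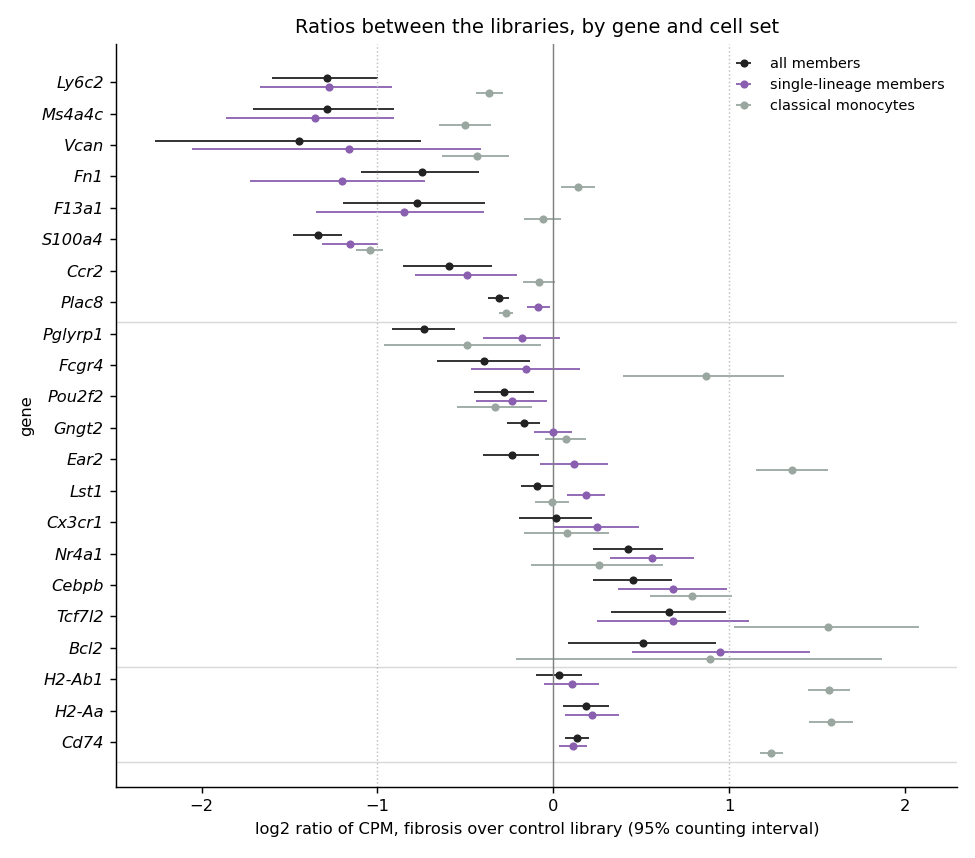
Points are log2 ratios of CPM, fibrosis over control, with exact 95% counting intervals, for all members, single-lineage members and classical monocytes; dotted lines mark 2-fold. Ly6c2 and Ms4a4c sit beyond the lower line in the members and to its right in classical monocytes, while Cd74, H2-Aa and H2-Ab1 sit near 0 in the members and above 1 in classical monocytes.

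Cells with and without Ly6c2 were compared within each library. Of the single-lineage members thinned to 1000 UMIs, 30 of 237 in control (12.7%, 8.71 to 17.6) and 15 of 172 in fibrosis (8.72%, 4.96 to 14.0) held a Ly6c2 UMI, while 4.05% and 3.46% of B cells did. The shares of the 2 libraries overlapped. In control, the cells with a Ly6c2 UMI had Ccr2 at 699 CPM (584 to 830) and those without at 286 (249 to 328). F13a1 was at 500 CPM (404 to 612) and 83.6 (63.9 to 107), and Fn1 at 495 CPM (399 to 607) and 111 (88.1 to 138). In fibrosis F13a1 was at 300.5 CPM (172 to 488) with Ly6c2 and 69.8 (48.4 to 97.6) without, and Fn1 at 357 CPM (215 to 557) and 51.3 (33.2 to 75.8). The intervals overlapped in fibrosis for Ccr2, at 413 CPM (259 to 626) and 246 (204 to 295), and for Ms4a4c, at 113 (41.4 to 245) and 84.2 (60.4 to 114). Cd74 ran the other way, at 1575 CPM with Ly6c2 and 4013 without in control, and at 2310 and 3970 in fibrosis. Ace was at 360 CPM with Ly6c2 and 585 without in control, and at 300 and 653 in fibrosis. Cx3cr1 was at 242 CPM with Ly6c2 and 418 without in control. In fibrosis its order was reversed, at 563 CPM (380 to 804) and 442 (384.5 to 505), with intervals that overlap. Exactly 1 Ly6c2 UMI placed 21 of the 30 control cells and 11 of the 15 fibrosis cells. The median depth was 6338 UMIs in the 30 control cells with Ly6c2 and 3007 in the 207 without.

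Outside the list, Anxa1, which encodes the anti-inflammatory protein annexin A1, was at 178 CPM (152 to 207) in control single-lineage members and 68.5 (48.2 to 94.4) in fibrosis. Its log2 ratio was -1.36, with a median of -0.02 in the 3 other cell types. F10, coagulation factor X, was at 153 CPM (129 to 180) and 57.4 (39.0 to 81.5). Capg, an actin-capping protein, was at 135 CPM (113 to 161) and 61.1 (42.1 to 85.8). These genes were lower in fibrosis in all members too, at log2 ratios of -1.23, -1.29 and -0.82.

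**Figure D4:**
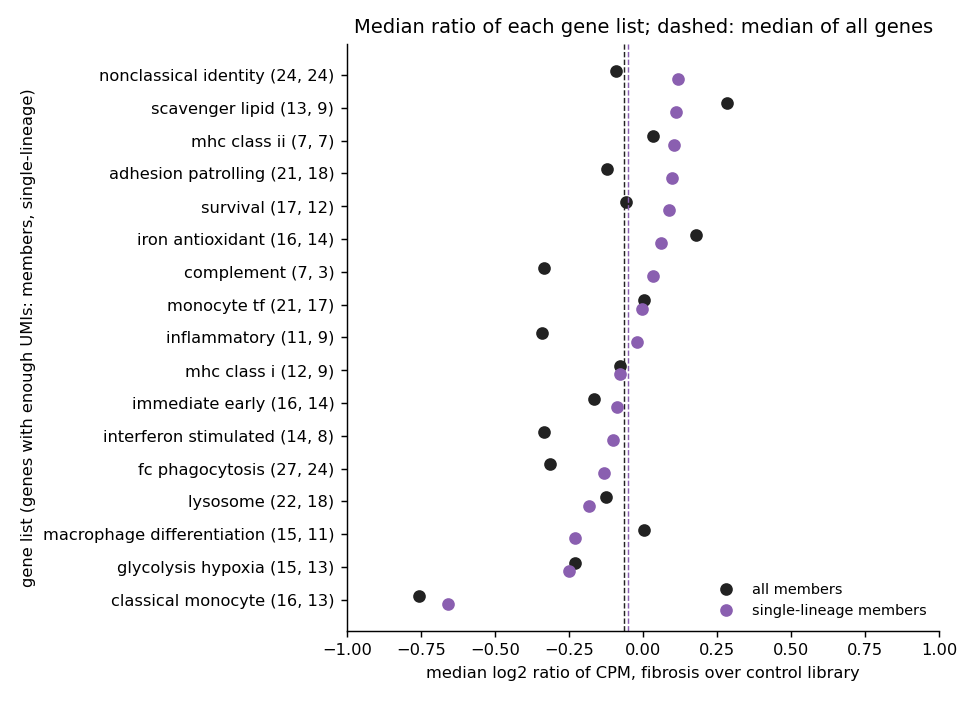
The horizontal axis gives the median log2 ratio, fibrosis over control, of each gene list, in all members and in single-lineage members, with the numbers of measured genes in parentheses. The classical monocyte list stands at -0.76 and -0.66, and the dashed lines give the medians of all genes at -0.06 and -0.05.

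Monocyte transcription factors had a median of 0.00 in both sets, with 8 above and 9 below 0 in the single-lineage members. In the lists of transcription factors, survival, MHC class II and MHC class I, 0 of 21, 17, 7 and 12 measured genes were 2-fold apart in all members. Beside 2.45% higher and 1.87% lower over all genes, these counts are near the background. Cebpb, a factor on which nonclassical monocytes depend, was at 199 CPM (171 to 230) in control single-lineage members and 318 (273 to 370) in fibrosis. In classical monocytes it was at 86.4 and 149 CPM. Tcf7l2, a Wnt pathway factor, was at 104 CPM (83.9 to 127) and 167 (134 to 205). Spi1, which encodes PU.1, was at 956 CPM (894 to 1022) and 900 (822 to 983), so its intervals overlapped. Klf2, a factor of quiescent circulating cells, was at 438 and 431 CPM.

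Survival genes had a median of -0.06 in all members, and of 0.09 with 7 above and 5 below 0 in the single-lineage ones. Bcl2, which blocks mitochondrial cell death and which nonclassical monocytes need, was at 69.9 CPM (53.8 to 89.2) in control single-lineage members and 135 (106 to 170) in fibrosis. Its log2 ratio was 0.95 (0.45 to 1.46) there and 0.51 (0.09 to 0.93) in all members, whereas B cells had 165 and 115 CPM. Bcl2a1d, a further inhibitor of cell death, was at 121 CPM (99.7 to 146) and 222 (184 to 266). The Bcl2a1 genes are near-identical copies and their reads may be split between them. Another copy, Bcl2a1a, went the other way once the median ratio of classical monocytes, B cells and T cells was subtracted. It was then at least 2-fold lower in fibrosis and among the 8 lowest genes, in all members and in the single-lineage ones. Tgm2, a transglutaminase, was at 91.7 CPM (73.1 to 114) and 163 (131 to 201), and B cells had it at 11.2 and 27.8 CPM.

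Ceacam1, an adhesion molecule of these cells, and Kpna4, a nuclear import receptor, were at least 2-fold higher in the single-lineage members. Ceacam1 was at 94.97 CPM (76.1 to 117) and 194 (159 to 235), and in classical monocytes at 24.1 and 21.1. Kpna4 was at 51.3 CPM (37.7 to 68.2) and 150 (119 to 186), with a log2 ratio of 1.54, against a median of 0.59 over classical monocytes, B cells and T cells. Of the 17 genes at least 2-fold higher, 14 were measured in all 3 other types, 12 of these were at least 1.41-fold higher in each, and 0 of 14 were still 2-fold higher after subtraction of their median. Ceacam1 had too few UMIs in T cells to be among the 14. Of the 18 genes at least 2-fold lower, 15 were measured in all 3 other types. Of these 15, 6 were at least 1.41-fold lower in each, and 2 were still 2-fold lower after that subtraction.

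The remaining higher genes were mostly shared across cell types. Gstp1, a glutathione transferase, was at 41.5 CPM (29.4 to 56.9) in control single-lineage members and 176 (142 to 215) in fibrosis, and at 35.9 and 165 CPM in classical monocytes. Scd1, the stearoyl-CoA desaturase of lipid-making cells, was at 228 and 1136 CPM in all members and at 157 and 707 CPM in classical monocytes. Retnla, a secreted protein of alternatively activated macrophages and airway cells, was at 4.40 CPM (1.77 to 9.07) in control members and 431 (389 to 477) in fibrosis. Of its 381 UMIs in fibrosis members, 231 were in 1 cell. Retnla was not among the 17 genes at least 2-fold higher in the single-lineage members. B cells had Retnla at 10.7 and 2182 CPM, and 18.9% of fibrosis B cells thinned to 1000 UMIs held a UMI of it against 12.8% of single-lineage members. The median UMI counts of those cells were 2719 and 2830.

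**Figure D5:**
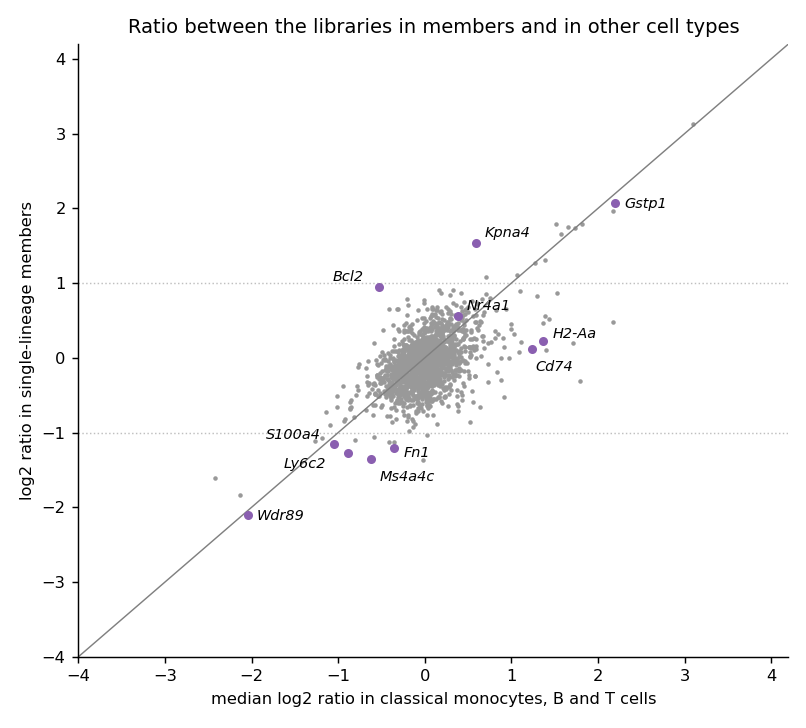
Each point is a gene of the single-lineage members, with its log2 ratio, fibrosis over control, on the vertical axis and the median of its ratios in classical monocytes, B cells and T cells on the horizontal axis; the line marks equal ratios. Gstp1 lies near the line at 2.07 and 2.20, Bcl2 at 0.95 and -0.53 lies above it, and Cd74 at 0.11 and 1.24 below it.

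The 7 measured genes of MHC class II presentation had a median of 0.04 in all members and 0.11 in the single-lineage ones. In all members the median became 0.54 when 2 gate genes sufficed and -0.82 when the other cell types were subtracted. Cd74, the invariant chain that escorts class II molecules, was at 3518 CPM (3398 to 3642) in control single-lineage members and 3806 (3644 to 3974) in fibrosis. In classical monocytes it was at 861 and 2034 CPM. H2-Aa, a class II alpha chain, was at 915 CPM (854 to 979) and 1066 (981 to 1157), against 209 and 626 CPM in classical monocytes. H2-Ab1, its beta chain, was at 967 CPM (905 to 1033) and 1040 (956 to 1130), against 231 and 686. The fold between the libraries was thus larger in the cells gated as classical, a difference that was not tested. The intervals of the 2 libraries parted for Cd74 and H2-Aa in the single-lineage members and overlapped for H2-Ab1. MHC class I genes had a median of -0.08 in both sets.

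The inflammatory list had a median of -0.34 over 11 genes in all members and -0.02 over 9 in the single-lineage ones. Il1b, interleukin 1 beta, was at 339 CPM (311 to 369) in control members and 162 (136 to 191) in fibrosis. In the single-lineage members it was at 159 CPM (135 to 187) and 122 (94.5 to 155), where the intervals overlap. The neutrophil-bearing control members had it at 784 CPM and the other control members at 150. S100a8 was at 11445 and 3992 CPM in all members, and its level in the single-lineage ones is set by the limit that defines them. Retnlg was at 1414 and 95.03 CPM in all members.

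The interferon list had a median of -0.34 over 14 genes in all members, all 14 below 0, and of -0.10 over 8 genes in the single-lineage members. After subtraction of the other cell types the median in all members was -0.07. Its 1 gene at least 2-fold lower was Oasl2, an oligoadenylate synthetase relative, at 61.0 CPM (49.4 to 74.4) and 20.4 (12.1 to 32.2). Of 16 immediate early genes 1 was at least 2-fold lower, Dusp1, a phosphatase of MAP kinases, at 213 and 99.6 CPM. In the single-lineage members Dusp1 was at 122 CPM (101 to 147) and 77.8 (56.0 to 105).

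The list of receptors and signalling proteins for IgG and phagocytosis had a median of -0.31 over 27 genes in all members, with 22 below 0, and of -0.13 over 24 in the single-lineage members. After subtraction of the other cell types the medians were -0.0089 and 0.20. Fcer1g, the signalling chain of Fc receptors, was at 4026 CPM (3897 to 4158) and 3773 (3611 to 3940) there. Scavenger and lipid genes had a median of 0.28 over 13 genes in all members and of 0.11 over 9 in the single-lineage ones, or -0.05 and -0.61 after that subtraction. Fabp5, a fatty acid carrier of macrophages, was at 211 CPM (189 to 235) and 399 (359 to 443) in all members but at 152 (128 to 179) and 122 (94.5 to 155) in the single-lineage ones. Cd36, a scavenger receptor, was at 111 and 214 CPM in all members, and at 74.2 CPM (57.6 to 94.1) and 102 (76.7 to 133) in the single-lineage ones.

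Of 11 genes of macrophage differentiation measured in the single-lineage members, 0 were at least 2-fold higher and 1, Fn1, was at least 2-fold lower, beside 0.939% and 0.994% over all genes, with a median of -0.23. In all members 3 of 15, Cd63, Lpl and Retnla, were at least 2-fold higher, beside 2.45% over all genes, with a median of 0.00. For Retnla, 1 cell held 231 of the 381 UMIs in fibrosis members. Lpl, lipoprotein lipase, was at 52.8 CPM (42.1 to 65.4) and 114 (93.1 to 139) in all members, and at 17.5 (9.98 to 28.4) and 22.2 (11.5 to 38.8) in the single-lineage ones. Lysosomal genes had a median of -0.13 over 22 genes in all members, with 16 below 0. In the single-lineage members it was -0.18 (-0.43 to -0.10) over 18 genes, with 17 below 0, against -0.05 over all genes. After subtraction of the other cell types the medians were -0.16 and -0.12. Glycolysis and hypoxia genes had a median of -0.23 over 15 genes in all members and -0.25 over 13 in the single-lineage ones. Iron and antioxidant genes had a median of 0.18 over 16 genes in all members and 0.06 over 14 in the single-lineage ones. Adhesion and patrolling genes had a median of -0.12 over 21 genes in all members and 0.10 over 18 in the single-lineage ones, and complement genes of -0.33 over 7 and 0.03 over 3.

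Against interstitial macrophages, the lung macrophages with high C1q, the single-lineage members were at least 2-fold higher in both libraries for 6.89% of 3701 genes and at least 2-fold lower for 9.75%. The rules of both cell types used C1q, so its genes are set by them. The 10 genes that led the excess were Cd300e, Eno3, Serpinb10, Gm15987, S1pr5, Nxpe4, Adgre4, Ifitm6, Ace and Treml4, of which 5 belong to the gate.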

How the data were processed

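RNA of dissociated lung cells was measured in 1 control and 1 fibrosis library. The deposited matrices hold UMI counts per gene and cell, made with Cell Ranger 1.3 and bcl2fastq on mm10, per the submitters' processing notes. The files list 27998 genes and 8280 and 7173 cells. Cells over 10% mitochondrial UMIs were dropped, and the members' UMIs were summed per library and given per 1000000 UMIs (CPM), with no test, since each group has 1 library. Intervals are exact Poisson (levels), Clopper-Pearson (shares) and conditional binomial (ratios), all at 95%. Log2 ratios add 0.5 UMI, and genes needed 100 UMIs over both libraries. No doublet caller was used for the main values; the removal of the top 5% of scrublet scores (scanpy 1.11.5) is an alternative. PCR copies are collapsed by UMIs.

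Gene positions are from GENCODE M21 and promoters from RefSeq. Calculations used Python 3.11.15, numpy 2.4.6, scipy 1.17.1 and pandas 2.3.3, and were checked on simulated counts. The members and the 31 gene lists were chosen with earlier results of these data known. Genes were named by rule: the 12 highest and 12 lowest by the interval bound nearest to 0, the 8 and 8 after subtraction of 3 other cell types, up to 6 of each list by level, the gate, and the 20 and 10 leading over classical monocytes and interstitial macrophages. Cx3cr1, Cebpb, Tcf7l2, Bcl2a1d, Ceacam1, Sirpb1c, Ccr2, Capg, Cd63, Lpl, Oasl2 and Dusp1 fall outside it and were named after their values were seen. A few genes are not reported here. Alternatives changed the gate, the mitochondrial limit, a UMI floor, doublet removal, scaling, the averaging over cells, the subtraction, the filter and the prior.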

Additional observations from a re-analysis of the deposited data

Results flagged for a closer look

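The airway genes Aldh1a1, Cyp2f2, Scgb1a1 and Scgb3a2 were higher in the fibrosis library in nonclassical monocytes and lower in it in classical monocytes, and this difference between the cell types was not tested. The log2 ratios in nonclassical and classical monocytes were 2.98 and -1.26 for Aldh1a1, 2.94 and -2.43 for Cyp2f2, 1.61 and -2.07 for Scgb1a1, and 1.62 and -1.58 for Scgb3a2. One fibrosis member held 84.0%, 88.9%, 73.5% and 70.7% of the fibrosis members' UMIs of these genes.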

How the results depend on the processing

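No paired analysis was possible because each group has 1 library. The share of members was 4.45% and 3.30% (control, fibrosis), and was lower in fibrosis under each alternative run: 2.78% and 1.80% with at least 4 gate genes, 7.10% and 5.51% with at least 2, 5.13% and 4.07% at a mitochondrial limit of 5%, 2.95% and 2.48% in single-lineage members, 6.37% and 5.21% of cells with Ptprc, and 1.70% and 1.48% with cells thinned to 1500 UMIs. With a floor of 2000 UMIs per cell the share was 4.89% and 3.03%. The count of genes at least 2-fold higher, 71, became 26 with at least 4 gate genes, 163 with at least 2, 32 without the top scrublet scores, 17 in single-lineage members, 16 after subtraction of the other cell types, and 150, 37 and 3039 with at least 50, at least 200 and no minimum of UMIs. The count at least 2-fold lower, 54, became 30, 18, 95, 30 and 913 with at least 4 gate genes, in single-lineage members, and with at least 50, at least 200 and no minimum. The cause was not tested beyond the fewer or more genes and cells counted.

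Over 17 lists, 8 of 204 recalculated medians left the 95% order-statistic interval of the list's own genes, which is wide, so smaller shifts, such as those by TMM other than that of complement, are not among them. Single-lineage members moved adhesion and patrolling to 0.10. Subtraction moved Fc receptors and phagocytosis to -0.0090, scavenger and lipid genes to -0.050, MHC class II to -0.82 and MHC class I to 0.10. TMM moved complement to -0.47, at least 2 gate genes moved MHC class II to 0.54, and at least 4 moved MHC class I to 0.075. Of 60 genes recalculated, 3 turned direction: Gstp1 to -0.14 and Pgk1 to -0.82 after subtraction, and Cyp2f2 to -0.061 in single-lineage members, which leave out the 1 cell that held most of its UMIs. Values of these genes stayed within counting error in 481 planned recalculations and moved beyond it in 106. In single-lineage members, 31 stayed within it, 28 moved beyond it and 1 turned. In a list median few genes, and in single genes few UMIs, limit the precision.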
